A study of Rattus norvegicus with 12 samples.

Results

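The transcripts followed here encode the contractile apparatus that marks differentiated smooth muscle, and the coactivator that drives their transcription. The set holds 10 genes chosen by name: Myocd, Acta2, Tagln, Cnn1, Cald1, Lmod1, Myh11, Mylk, Smtn and Des. A probe set was counted as a member when the array annotation gives exactly 1 gene symbol and that symbol is one of these, which found 15 of 31042 probe sets. They cover all 10 genes, out of 14217 genes named on the array in this way. There were 6 genes with 1 probe set and 4 with more than 1 (Myh11, Smtn, Mylk and Cald1). A further 5 probe sets name Acta2 together with cardiac actin (Actc1) and were left out.

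The arrays were hybridised with RNA of smooth muscle cells grown in primary culture from the aorta of newborn rats. All cells spent a night in serum-free medium before any stimulus, so every group, the unstimulated ones included, shares this step. In the thrombin experiment, 2 unstimulated arrays (no agent) stand against 2 arrays of cells given thrombin at 2 U/ml for 120 min. In the TRAP experiment, 2 unstimulated arrays stand against 2 arrays after TRAP, a peptide agonist of thrombin receptors, at 25 µM for 120 min. In the third experiment, 2 arrays labelled as having no agent stand against 2 arrays of cells held for 24 h in pertussis toxin (PTX, which uncouples receptors from Gi proteins) at 200 ng/ml and then given 25 µM TRAP for 120 min. The sample titles call each pair of unstimulated arrays basal expression prior to the stimulus. No array is labelled as cells kept for 120 min without an agent, so agent, time and handling cannot be told apart in any response. It is not stated whether the unstimulated cells of the third experiment had PTX. The number of animals that gave the cultures and the passage are not stated either. In names of unstimulated groups and arrays below, PTX stands for the third experiment only. No label ties the replicates to cultures of their own. The p-values here thus measure the scatter among these arrays, which may be technical.

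Contraction of smooth muscle starts when calcium and calmodulin activate myosin light chain kinase (Mylk), which lets the smooth muscle myosin heavy chain (Myh11) pull on filaments of smooth muscle actin (Acta2). Calponin (Cnn1), caldesmon (Cald1) and transgelin (Tagln) bind along the thin filament, leiomodin (Lmod1) nucleates it, and desmin (Des) forms intermediate filaments beside it. The genes are known as targets of serum response factor (Srf), which binds CArG boxes in DNA and is driven toward the contractile programme by its coactivator myocardin (Myocd), while the same factor also serves growth genes through other partners. Cultured smooth muscle cells are known to lose part of this programme and to take on a synthetic, proliferative state.

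The promoters are shown because the genes are read here as one programme with a shared DNA element. RefSeq promoter windows (build GRCr8) were at hand for 6 of the 10 genes, with 7 windows in all, Cald1 having more than 1. The genes without an entry were Tagln, Myh11, Myocd and Lmod1. The 250 bases before each start were searched on both strands for the CArG box by name (a core of A and T between a pair of C and a pair of G), and for a CArG-like element with 1 C or G in the core. The capitals below mark CArG-like elements in Acta2 and CArG boxes in Srf, in the 150 bases before the start.

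Acta2, chr1:241172504-241172653, minus strand: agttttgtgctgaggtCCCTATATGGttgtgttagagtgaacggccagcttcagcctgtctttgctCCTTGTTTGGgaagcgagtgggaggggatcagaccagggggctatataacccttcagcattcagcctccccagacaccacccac
Srf, chr9:21923926-21924075, plus strand: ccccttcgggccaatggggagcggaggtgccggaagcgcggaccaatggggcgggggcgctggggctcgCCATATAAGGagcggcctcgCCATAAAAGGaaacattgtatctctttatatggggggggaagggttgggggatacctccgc

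In Acta2 the CArG-like elements begin at positions -134 and -84 from the start. In Srf, whose gene is known to be a target of its own product, the CArG boxes begin at -81 and -61. Over all 33469 promoter windows of the same length, 1.5% hold a CArG box and 6.84% a CArG-like element. Of the 7 member windows, 0 hold a CArG box and 1, that of Acta2, holds a CArG-like element. A match is a description of letters and no measured site, and known elements of some of these genes lie outside such windows.

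The values are scanner intensities on a linear scale, called signal here, and changes are differences of log2(signal + 16), a scale on which fold changes of dim probe sets come out too small. Of the 15 member probe sets 12 passed the filter on dim probe sets (mean log2 signal above the 40th percentile, equal to a signal of about 22.7), and each of the 10 genes kept at least 1. The 3 that did not pass were a second Myh11 probe set (2.7 to 42.2 over the 12 arrays), a second Mylk probe set (2.7 to 30.7) and another of Cald1 (0.4 to 14.8). In the thrombin experiment Myocd lay close to that value, with 1 of its 4 arrays below it (18.0) and the others at 31.7 to 45.2. Levels of different probe sets are not set against each other, as probes differ in brightness.

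Array medians ran from 39.5 to 53.4 and replicate arrays correlated at r = 0.983 to 0.991 over the kept probe sets. The thrombin experiment stood apart from the other two, with correlations of 0.913 to 0.941 between its arrays and theirs. The 8 arrays of the TRAP and PTX experiments also fell into 2 sets that cut across their labels. Saa3 (serum amyloid A3) was at 15.9 to 22.8 on TRAP replicate 2, TRAP after PTX replicate 1 and both arrays of unstimulated TRAP cells. It was at 222.5 to 420.9 on TRAP replicate 1, TRAP after PTX replicate 2 and both unstimulated arrays of the PTX experiment. The cell-cycle marker Mki67 was at 900.3 to 1095.7 in the first set and at 515.4 to 607.5 in the second. For each of the 12 member probe sets the signals of these sets overlapped. The share of all kept probe sets that overlap was not counted, so this is not read as particular to the members. Member results of the TRAP and PTX experiments were also computed without TRAP replicate 1 and TRAP after PTX replicate 1, the stimulated arrays whose set differs from that of their unstimulated arrays.

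The labelled cell type was checked against its markers, which are these genes themselves. Acta2, Tagln, Cald1 and Cnn1 were bright on every array, with Acta2 at 4568.2 or above, Tagln at 3747.0 or above and Cnn1 at 821.9 or above. The defining late marker Myh11 (15.8 to 65.8 on its brighter probe set) and Des (15.8 to 52.9) stayed close to the dim end of the array throughout. These are bulk samples, in which fewer cells of a type and less RNA per cell cannot be told apart.

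The first comparison asks how much of the programme the cells carried before stimulation. In unstimulated cells of the TRAP and PTX experiments, 9 of the 12 member probe sets were called higher than in the thrombin experiment. None was called lower. Direction here means the sign of the mean of both differences. The largest difference was in Myocd, followed by Lmod1 and Cnn1. By limma's F test over the 3 unstimulated groups with Benjamini-Hochberg adjustment, these 9 (75% of the 12) were called, and over all 18625 kept probe sets 42.2% were, or 22.7% counting only those higher in the TRAP and PTX experiments. The experiments thus differed widely in general, and each unstimulated group is tied to its own experiment.

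**Figure D1:**
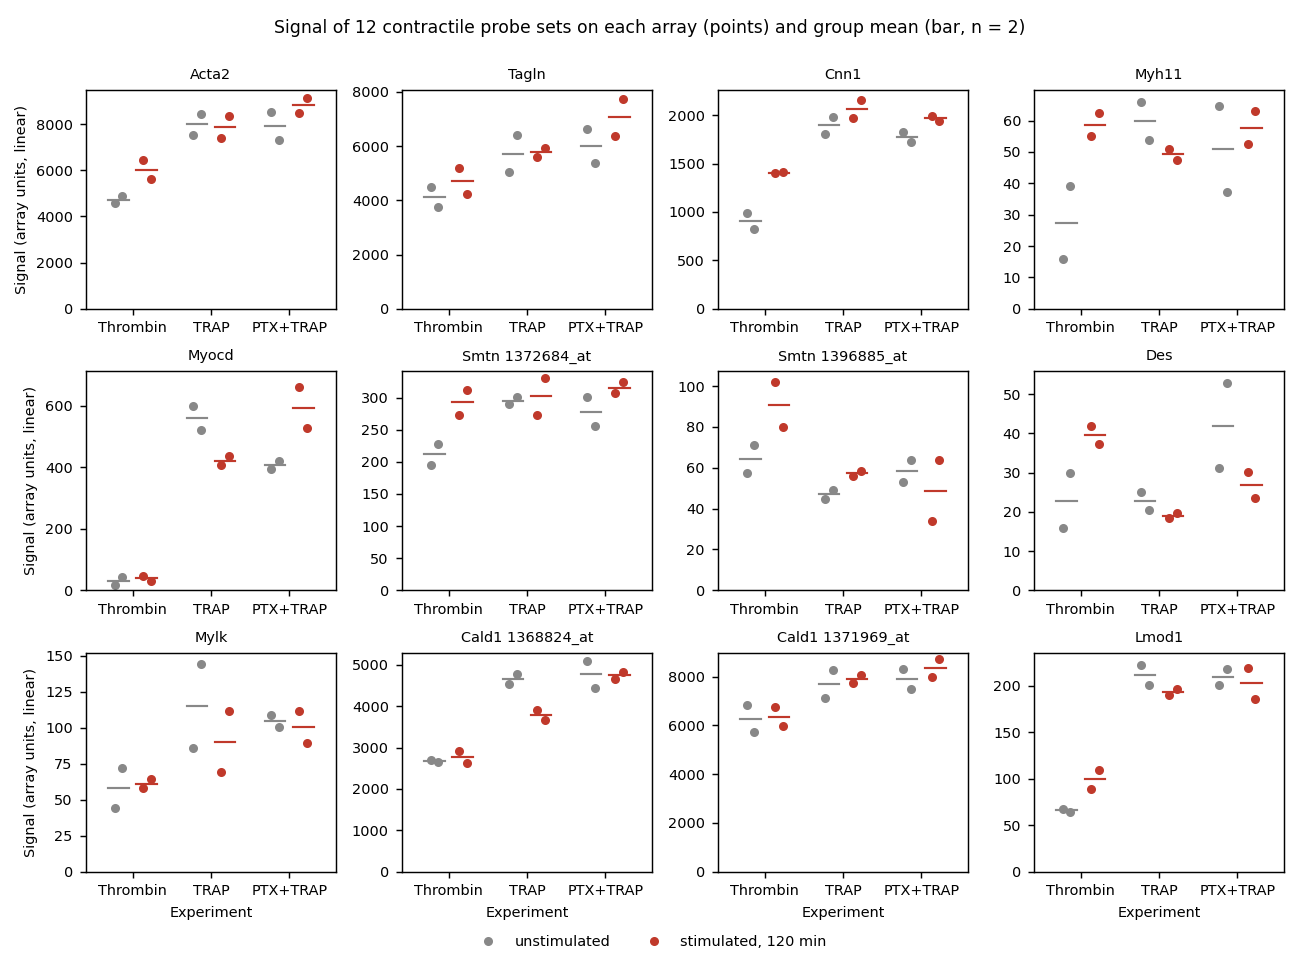
Signal (array units, linear scale from 0) of the 12 kept member probe sets on each array, by experiment, with unstimulated arrays in grey, stimulated arrays in red and a bar at the mean of the 2 arrays of a group. Myocd stays between 18.0 and 45.2 on the 4 arrays of the thrombin experiment and between 394.5 and 660.3 on the others, while Cnn1 shows the thrombin arrays at 1398.1 and 1409.8 above their unstimulated arrays.

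Myocd, the coactivator, gave signals of 18.0 and 43.0 on the unstimulated arrays of the thrombin experiment. It gave 597.3 and 520.2 on those of the TRAP experiment and 394.5 and 420.9 on those of the PTX experiment. All 4 arrays of the thrombin experiment thus lay far below the other 8, and near the level at which probe sets were filtered out as dim. The difference was 3.68 ± 0.21 (log2, SE, n = 2 against 2) for TRAP minus thrombin and 3.24 ± 0.21 for PTX minus thrombin (limma F test, adjusted p = 3.74e-08). Between the TRAP and PTX groups Myocd differed by -0.44 ± 0.21 (limma, adjusted p = 0.423).

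Of the thin filament genes, Lmod1 was at 67.9 and 63.9 in the thrombin experiment, at 223.1 and 200.7 in the TRAP experiment and at 201.4 and 218.6 in the PTX experiment, all unstimulated. The groups from the TRAP and PTX experiments overlapped each other and lay well above the first, by 1.48 ± 0.14 and 1.46 ± 0.14 on the log2 scale (adjusted p of the limma F test 1.93e-06). Cnn1 was at 991.7 and 821.9, then 1807.0 and 1980.0, then 1823.2 and 1724.4, which is higher by 1.05 ± 0.10 and 0.96 ± 0.10 (adjusted p = 3.74e-06). Its order of levels was thrombin below the other two, and those did not separate beyond their spread. Acta2 was at 4568.2 and 4863.6, then 7538.6 and 8447.1, then 8499.7 and 7322.1, higher by 0.76 ± 0.11 and 0.74 ± 0.11 (adjusted p = 0.000139).

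One Cald1 probe set (1368824_at) was at 2691.1 and 2646.5, then 4543.0 and 4765.0, then 5091.8 and 4449.2. These levels were 0.80 ± 0.10 and 0.83 ± 0.10 above the thrombin experiment on the log2 scale (adjusted p of the limma F test 1.58e-05). A second Cald1 probe set (1371969_at) differed less, by 0.30 ± 0.12 and 0.34 ± 0.12, and missed the threshold of the F test (adjusted p = 0.0556). The 2 probe sets thus disagree in size but not in direction. Tagln was at 4472.7 and 3747.0, then 5025.7 and 6397.3, then 6642.7 and 5386.1, higher by 0.47 ± 0.15 and 0.55 ± 0.15 (adjusted p = 0.0198).

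Among the myosin genes, Myh11 was at 15.8 and 39.2, then 65.8 and 53.9, then 64.6 and 37.1 (log2 difference 0.85 ± 0.26 and 0.64 ± 0.26, adjusted p of the limma F test 0.0392). Its groups from the thrombin and PTX experiments overlapped. Mylk was at 44.5 and 72.0, then 85.8 and 144.1, then 109.1 and 100.2 (0.81 ± 0.25 and 0.72 ± 0.25, adjusted p = 0.0308).

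Smoothelin (Smtn), a cytoskeletal protein found in contractile smooth muscle, has probe sets that disagreed. One (1372684_at) was at 195.4 and 228.4, then 290.0 and 300.9, then 300.3 and 255.2, higher by 0.45 ± 0.13 and 0.37 ± 0.13 (limma F test, adjusted p = 0.0247). The other (1396885_at) was at 57.6 and 71.3, then 44.8 and 49.0, then 53.0 and 63.8, a difference of -0.35 ± 0.22 and -0.11 ± 0.22 (adjusted p = 0.402). Des was at 15.8 and 29.9, then 25.0 and 20.5, then 31.1 and 52.9, and was not called (0.02 ± 0.25 and 0.58 ± 0.25, adjusted p = 0.116).

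How firm these differences are depends on the scaling. When each array was centred on its own median, the median of all kept probe sets in these contrasts moved by -0.19 (TRAP minus thrombin) and -0.21 (PTX minus thrombin), and 5 of the 12 were called (41.7%, beside 44.6% of all kept probe sets). Myocd, Lmod1, Cnn1, Acta2 and Cald1 (1368824_at) were called under both scalings. Tagln (0.30, adjusted p = 0.266), Smtn (0.21, adjusted p = 0.368), Mylk (0.56, adjusted p = 0.114) and Myh11 (0.55, adjusted p = 0.116) were not called by limma after centring. These values are the mean of both unstimulated differences.

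Single arrays also decided some of these calls. Without unstimulated thrombin replicate 1 the differences of Myh11 (0.35, adjusted p = 0.385), Mylk (0.50, adjusted p = 0.319) and Smtn (0.31, adjusted p = 0.203) were not called. Without unstimulated thrombin replicate 2 that of Tagln was not (0.38, adjusted p = 0.192). Without unstimulated TRAP replicate 2 those of Mylk (0.60, adjusted p = 0.0606), Smtn (0.40, adjusted p = 0.069) and Myh11 (0.80, adjusted p = 0.0631) were not. Without unstimulated TRAP replicate 1, Smtn (0.42, adjusted p = 0.0552) and Myh11 (0.69, adjusted p = 0.116) were not, and without unstimulated PTX replicate 1 Mylk was not (0.74, adjusted p = 0.0525). Leaving out either thrombin-stimulated or either TRAP-stimulated array put Myh11 at an adjusted p of 0.0501 to 0.0527. Cald1 (1371969_at) was called without unstimulated thrombin replicate 1 (0.45, adjusted p = 0.0346) or unstimulated TRAP replicate 1 (0.37, adjusted p = 0.0419), and Des without unstimulated PTX replicate 1 (0.43, adjusted p = 0.0436).

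With stimulated arrays included, part of the members kept the order of the experiments. For 6 of the 12 probe sets (Myocd, Lmod1, Cnn1, Acta2 and both of Cald1), all 4 arrays of the thrombin experiment lay below all 8 others, and the same held for 18.1% of all kept probe sets. For the rest (Tagln, Myh11, Mylk, Des and both of Smtn) the experiments overlapped. Smtn (1396885_at) after thrombin, at 101.8 and 79.8, lay above all TRAP and PTX arrays (33.8 to 63.8). Between the unstimulated TRAP and PTX groups limma called 0 of the 12 (0.043% of all), and 1 of the 12, Des, had an unadjusted p below 0.05.

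**Figure D2:**
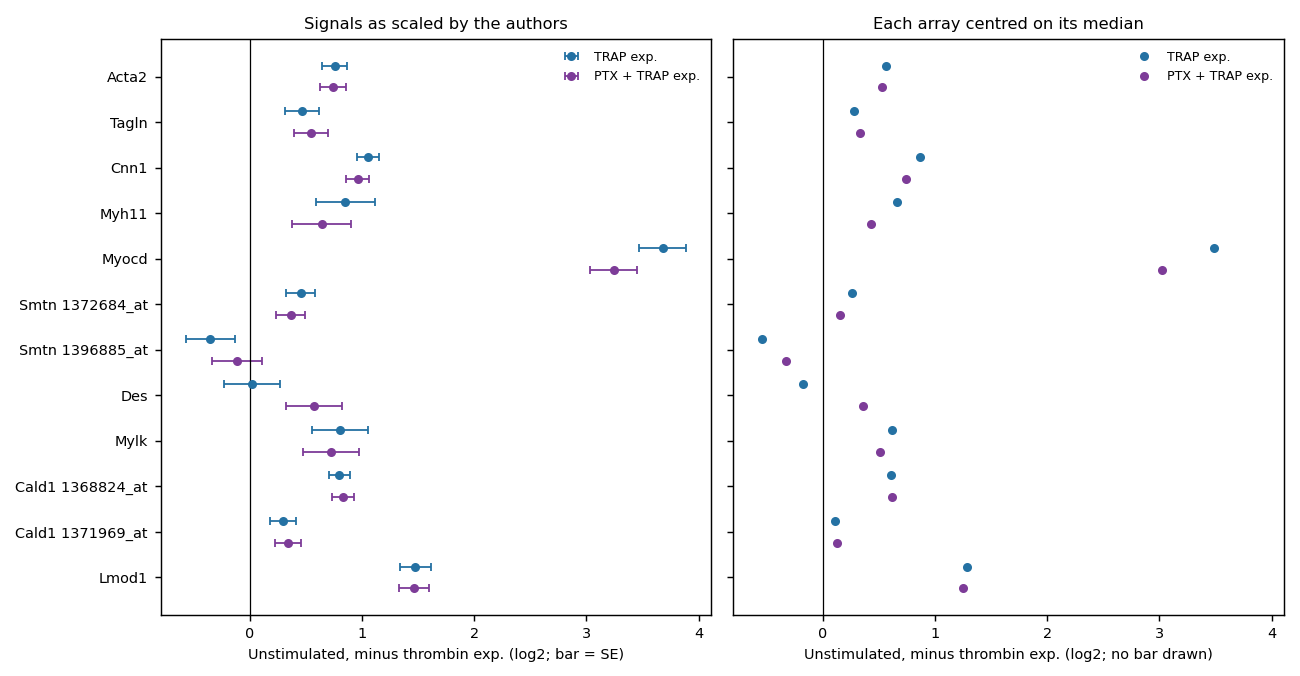
Difference between unstimulated groups (log2 of signal + 16) for each member probe set, TRAP experiment minus thrombin experiment in blue and PTX + TRAP experiment minus thrombin experiment in purple. The left panel uses the signals as scaled by the authors, with bars of 1 SE (n = 2 per group), and the right panel each array centred on its median, where all points shift to the left by about 0.19 or 0.21 and Myocd keeps the largest difference.

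Markers of other cell types were read on the same arrays. Of 12 fibroblast markers, 11 were on the array, 8 passed the filter, and 6 of these (Gsn, Dpep1, Dcn, Lum, Pdgfra and Thy1) were higher in the unstimulated TRAP and PTX groups by the F test, with a median difference of 1.36 over the 8. The summed signal of the 11 was 6421.1 to 6722.9 on the unstimulated arrays of the thrombin experiment, 10740.6 to 11552.3 in the TRAP experiment and 10935.7 to 10959.2 in the PTX experiment. Dpt, Ly6c and Tcf21 did not pass the filter, and no fibroblast marker was at 0 on any array. The fibroblast markers thus moved in the same direction as the contractile genes, and their part in that difference was not tested. Smooth muscle cells in culture can express several of these markers too.

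The endothelial markers Pecam1, Vwf, Kdr, Tie1, Emcn, Nos3, Esam and Cldn5 did not pass the filter, nor did the leukocyte markers Ptprc, Cd68, Aif1, Itgam, Cd3e, Cd74, Lyz2 and Tyrobp. In each list 3 of the 11 markers on the array passed. Over all 11 endothelial markers the sum was 303.5 to 367.9 on unstimulated arrays of the thrombin experiment and 474.0 to 539.4 on those of the others, and 2 of the 3 kept ones were called higher there and 1 lower. Over all 11 leukocyte markers the sums were 667.4 to 747.7 and 428.0 to 534.9, the opposite order, and 1 of the 3 kept ones was called lower. The 27 striated muscle markers summed to 9730.7 to 11047.8 and 7467.2 to 8471.8, but this order rests largely on troponin C (Tnnc1), at 5079.3 and 4281.4 in the thrombin experiment and 2337.4 to 2660.0 in the others. Of the 9 that passed, 3 were called higher and 2 lower in the TRAP and PTX groups, with a median difference of 0.10. Among adipocyte markers 1 of 8 passed, and among those of Schwann and neural cells 3 of 8. No marker of these lists was at 0 on any array.

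The next comparison sets the programme 120 min after thrombin against arrays labelled as taken before it. After thrombin Cnn1 was higher by 0.63 ± 0.10 (log2, about 1.54-fold, 95% interval 0.41 to 0.85, limma, adjusted p = 0.00247). It was the only one of the 12 member probe sets to be called, which is 8.33% of them beside 4.74% of all kept probe sets, or 2.63% counting rises alone. The estimates of the other 11 were all above 0, between 0.02 and 0.83. The median of the 12 was 0.38, beside -0.04 over all kept probe sets. The share of all kept probe sets above 0 was not counted, so the shared sign is not read as particular to the members. Without 1 array, estimates went as low as -0.13 for Myocd, -0.19 for Mylk and -0.03 and -0.10 for Cald1. Myh11, Des and Myocd had their lowest signals (15.8, 15.8 and 18.0) on unstimulated thrombin replicate 1. Both stimulated arrays lay above both unstimulated ones for 7 of the 12 (58.3%), beside 18.8% of all kept probe sets.

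Cnn1 went from 991.7 and 821.9 on the unstimulated arrays to 1398.1 and 1409.8 after thrombin. The groups did not overlap, and the thrombin arrays still lay below every array of the TRAP and PTX experiments (1724.4 to 2154.0). With each array left out in turn the change was 0.49 to 0.76 (adjusted p 0.00211 to 0.0313), and it was called under every alternative tried.

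The other thin filament genes did not reach the threshold. Acta2 was at 6436.0 and 5603.2 after thrombin, both above its unstimulated arrays, a difference of 0.35 ± 0.11 (limma, adjusted p = 0.105). Lmod1 was at 89.5 and 109.2, also above both unstimulated arrays, a difference of 0.49 ± 0.14 (adjusted p = 0.0602). Tagln was at 5189.7 and 4215.9, which overlaps its unstimulated arrays (0.19 ± 0.15, adjusted p = 0.576). The Cald1 probe sets were at 2917.9 and 2616.6 (0.05 ± 0.10) and at 6750.7 and 5976.2 (0.02 ± 0.12), and overlapped too.

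The dim motor and filament genes had larger estimates with larger errors. Myh11 was at 55.1 and 62.4 after thrombin, above both unstimulated arrays, a difference of 0.83 ± 0.26 (limma, adjusted p = 0.0932). Without unstimulated thrombin replicate 2 it was called (1.23, adjusted p = 0.0224), so its unstimulated arrays, 15.8 and 39.2, set that result. Des was at 41.9 and 37.3 (0.54 ± 0.25, adjusted p = 0.274). Mylk, at 58.2 and 64.1, lay between its unstimulated arrays (0.08 ± 0.25, adjusted p = 0.912).

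Both Smtn probe sets were above their unstimulated arrays after thrombin, at 273.3 and 311.9 (0.44 ± 0.13, limma, adjusted p = 0.0751) and at 101.8 and 79.8 (0.41 ± 0.22, adjusted p = 0.369). Myocd stayed at the dim end, at 45.2 and 31.7 (0.27 ± 0.21, adjusted p = 0.566). The rise of Cnn1 was thus measured in cells whose Myocd signal was near the filter. Between unstimulated and thrombin-treated cells limma called 0 of the 8 kept fibroblast markers, and the sum over the 11 on the array was 6582.7 to 7055.9 after thrombin. The endothelial sum was 477.1 to 501.1 after thrombin, above its unstimulated arrays. Of the 3 kept endothelial markers, Flt1, a receptor for vascular endothelial growth factor, rose from 80.6 and 89.1 to 247.6 and 266.1 (1.44 ± 0.21, adjusted p = 0.0013). It also rose with TRAP (1.44 ± 0.21, adjusted p = 0.00187) and after PTX and TRAP (1.28 ± 0.21, adjusted p = 0.00585). Its part in the responses of the contractile genes was not tested.

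**Figure D3:**
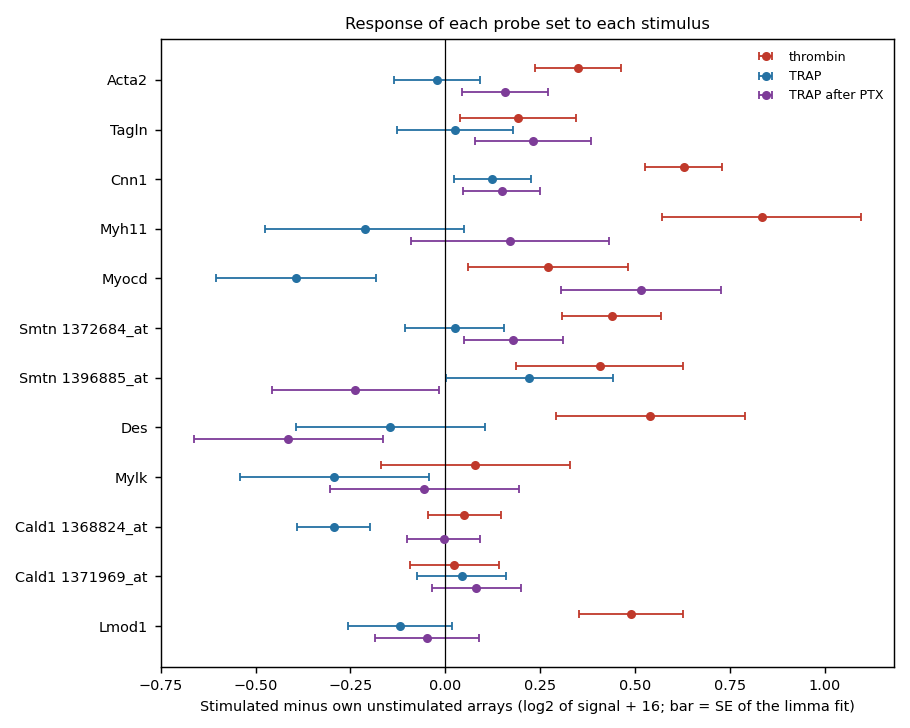
Change of each member probe set with each stimulus against its own unstimulated arrays (log2 of signal + 16, points) with bars of 1 SE of the limma fit (n = 2 against 2), thrombin in red, TRAP in blue and TRAP after PTX in purple. All 12 red points lie to the right of 0 and that of Cnn1 stands at 0.63, while the blue and purple points lie on both sides.

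TRAP alone gave no call among these genes. In the TRAP experiment limma called 0 of the 12 member probe sets (3.9% of all kept ones), 1 had an unadjusted p below 0.05, and the median change was -0.07 beside -0.04 over all. Both TRAP arrays lay above both unstimulated arrays for 1 of the 12 (Smtn 1396885_at, 8.33% beside 19.2% of all) and below for 5 (Myh11, Myocd, Des, Cald1 1368824_at and Lmod1, 41.7% beside 29.4%). Those shares carry no test.

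Cald1 (1368824_at) had the smallest p, going from 4543.0 and 4765.0 to 3910.0 and 3674.5 (-0.29 ± 0.10, limma, adjusted p = 0.123). The groups did not overlap, while the second Cald1 probe set was at 7117.7 and 8275.9 before and at 7750.9 and 8072.8 after TRAP (0.04 ± 0.12). Myocd was at 597.3 and 520.2 before and at 406.3 and 435.3 after TRAP, without overlap (-0.39 ± 0.21, adjusted p = 0.393). Cnn1 was at 1972.9 and 2154.0 after TRAP, and its unstimulated arrays at 1807.0 and 1980.0 overlapped (0.12 ± 0.10, 95% interval -0.10 to 0.34, adjusted p = 0.62).

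Acta2, at 7409.2 and 8345.7, and Tagln, at 5595.3 and 5944.2, overlapped their unstimulated arrays (-0.02 ± 0.11 and 0.02 ± 0.15). So did Mylk, at 69.2 and 111.5 (-0.29 ± 0.25), and Smtn (1372684_at), at 273.7 and 330.2 (0.02 ± 0.13). Lmod1, at 190.2 and 196.9, lay below its unstimulated arrays by 0.12 on the log2 scale, less than its SE of 0.14. Myh11, at 51.1 and 47.5 (-0.21 ± 0.26), and Des, at 18.4 and 19.6 (-0.14 ± 0.25), were dim. Without both stimulated arrays outside their set, limma again called 0 of the 12 with TRAP, and the median was 0.03 beside -0.03 over all. Cald1 (1368824_at) was then at -0.34, Myocd at -0.35 and Cnn1 at 0.19, while Mylk moved to -0.0019 and Acta2 to 0.06.

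After PTX and TRAP limma again called 0 of the 12 (2.71% of all kept probe sets), with 1 unadjusted p below 0.05 and a median of 0.11 beside -0.04. Both stimulated arrays lay above both unstimulated ones for 3 (Cnn1, Myocd and Smtn 1372684_at, 25.0% beside 18.1% of all) and below for Des (8.33% beside 27.1%). Myocd went from 394.5 and 420.9 to 660.3 and 525.9 (0.52 ± 0.21, adjusted p = 0.232). Its stimulated arrays thus lay above the unstimulated ones here and below them with TRAP alone.

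Cnn1 was at 1995.2 and 1940.1 after PTX and TRAP (0.15 ± 0.10, limma, adjusted p = 0.487), and Acta2 at 8497.7 and 9115.4 (0.16 ± 0.11, adjusted p = 0.514). Tagln had its brightest array of all here, at 7748.9 beside 6370.0 on the other (0.23 ± 0.15, adjusted p = 0.471). Des was at 30.2 and 23.6 against 31.1 and 52.9 unstimulated (-0.41 ± 0.25, adjusted p = 0.428). The other members had estimates between -0.24 and 0.18. Without both stimulated arrays outside their set, 0 of the 12 were called and the median was 0.14 beside -0.03. Myocd was then at 0.36, Tagln at 0.37, Acta2 at 0.21, Cnn1 at 0.13 and Des at -0.52, while Smtn (1396885_at) turned from -0.24 to 0.10 and Mylk moved from -0.06 to -0.19.

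The response after PTX and TRAP minus the response to TRAP alone was tested as a difference. It is not stated whether the unstimulated cells of the third experiment had PTX. A direct effect of PTX and an altered response to TRAP thus cannot be told apart here. limma called 0 of the 12 (0.129% of all kept probe sets), and 1, Myocd, had an unadjusted p below 0.05. For Myocd the difference was 0.91 ± 0.30 (95% interval 0.26 to 1.55, adjusted p = 0.38). Without TRAP replicate 1 and TRAP after PTX replicate 1, which sit in the array set opposite to their unstimulated arrays, it was 0.70 (adjusted p = 0.821), and a block for the array sets gave 0.70 (adjusted p = 0.721). For Cnn1 the difference was 0.03 ± 0.14, with an interval of -0.28 to 0.33.

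Whether thrombin and TRAP differed was tested in the same way. limma called 0 of the 12 member probe sets (0.532% of all kept ones), and 7 had an unadjusted p below 0.05. The share of all kept probe sets with such a p was not counted, so the 7 are not read as a result. The estimate was above 0 for 11 of the 12, with a median of 0.39 beside 0.00 over all kept probe sets. Cnn1 had the smallest p, with 0.50 ± 0.14 (interval 0.20 to 0.81, adjusted p = 0.179), so that its rise with thrombin is not shown to differ from its response to TRAP. Lmod1 differed by 0.61 ± 0.19 (adjusted p = 0.246) and Myh11 by 1.05 ± 0.37 (adjusted p = 0.308). The experiments also differed before the stimulus, with Cnn1 starting at 821.9 to 991.7 in one and at 1724.4 to 1980.0 in the others, and starting level and stimulus cannot be told apart.

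Averaged over the 3 responses, Cnn1 rose by 0.30 ± 0.06 (limma, adjusted p = 0.00419) and was the only member probe set called, 1 of 12 beside 13.2% of all kept probe sets. Without any 1 array the average was 0.26 to 0.34 (adjusted p 0.00144 to 0.0187), and without both stimulated arrays outside their set 0.31 (adjusted p = 0.0188). In the same average 1 of the 8 kept fibroblast markers and 1 of the 3 kept Schwann and neural markers were called lower. The median of the members was 0.13 beside -0.04 over all. Smtn (1372684_at) averaged 0.21 (adjusted p = 0.0783) and Acta2 0.16 (adjusted p = 0.126).

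Regulators of the programme were read from a list of their own. Of 37 names of Srf cofactors and regulators, 30 were kept genes. For comparison, limma called 4.74% of all kept probe sets with thrombin, 3.9% with TRAP and 2.71% with TRAP after PTX. Thrombin raised 4 (Srf, Fhl2, Csrp1 and Nr4a1) and lowered 3 (Hey2, Tbx18 and Klf15), with a median of 0.08. TRAP raised 3 (Srf, Elk4 and Nr4a1) and lowered 2 (Hey2 and Klf15), and TRAP after PTX raised Nr4a1 and lowered Klf15. With each array left out in turn, these counts were 3 to 7, 1 to 5 and 1 to 3. The thrombin call of Csrp1, a LIM protein, was not made without thrombin replicate 1 (0.37) or replicate 2 (0.32), among other arrays, and that of Tbx18 not without thrombin replicate 1 (-0.94).

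Srf itself went from 704.1 and 862.8 to 1931.0 and 1898.4 with thrombin (1.28 ± 0.11, limma, adjusted p = 1.35e-05). With TRAP it went from 629.7 and 603.5 to 933.6 and 876.2 (0.54 ± 0.11, adjusted p = 0.0122), and after PTX from 803.5 and 690.4 to 853.9 and 855.4 (0.19 ± 0.11, adjusted p = 0.387). The groups did not overlap in any of the experiments, and the rise with thrombin minus that with TRAP was 0.74 ± 0.15 (adjusted p = 0.0535). The TRAP call was not made without TRAP replicate 1 (0.50, adjusted p = 0.0811), unstimulated TRAP replicate 1 (0.57, adjusted p = 0.0822) or unstimulated TRAP replicate 2 (0.51, adjusted p = 0.114).

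Klf15, a Krüppel-like transcription factor, fell in all of the experiments. It went from 123.1 and 154.5 to 54.2 and 60.7 with thrombin (-1.07 ± 0.21, limma, adjusted p = 0.0105), from 218.9 and 167.0 to 78.0 and 66.4 with TRAP (-1.24 ± 0.21, adjusted p = 0.00536), and from 248.8 and 353.3 to 56.3 and 90.3 after PTX and TRAP (-1.83 ± 0.21, adjusted p = 0.000334). The thrombin call was not made without unstimulated thrombin replicate 2 (-0.92, adjusted p = 0.0677), thrombin replicate 1 (-1.01, adjusted p = 0.09) or thrombin replicate 2 (-1.13, adjusted p = 0.0543), nor the TRAP call without unstimulated TRAP replicate 1 (-1.06, adjusted p = 0.0878). The direction was the same in each of these fits.

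Hey2, a Notch target that represses contractile genes, fell with thrombin from 762.8 and 718.1 to 399.4 and 499.4 (-0.71 ± 0.15, limma, adjusted p = 0.0142). With TRAP it fell from 2488.2 and 2617.7 to 1223.4 and 1323.1 (-0.995 ± 0.15, adjusted p = 0.00195). After PTX and TRAP it was at 1623.7 and 1111.0 against 2066.9 and 1890.6, without a call (-0.55 ± 0.15, adjusted p = 0.0689). That value was called without TRAP after PTX replicate 1 (-0.82), and the thrombin call was not made without unstimulated thrombin replicate 1 (-0.67, adjusted p = 0.103) or thrombin replicate 1 (-0.55, adjusted p = 0.16). Nr4a1, an orphan nuclear receptor of the early response, rose by 2.61 ± 0.24, 1.30 ± 0.24 and 1.49 ± 0.24. Its call was not made with TRAP without either unstimulated TRAP array (1.28, adjusted p = 0.0754, and 1.33, adjusted p = 0.0562) or TRAP replicate 2 (1.02, adjusted p = 0.0802), nor after PTX without unstimulated PTX replicate 2 (1.38, adjusted p = 0.0546).

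**Figure D4:**
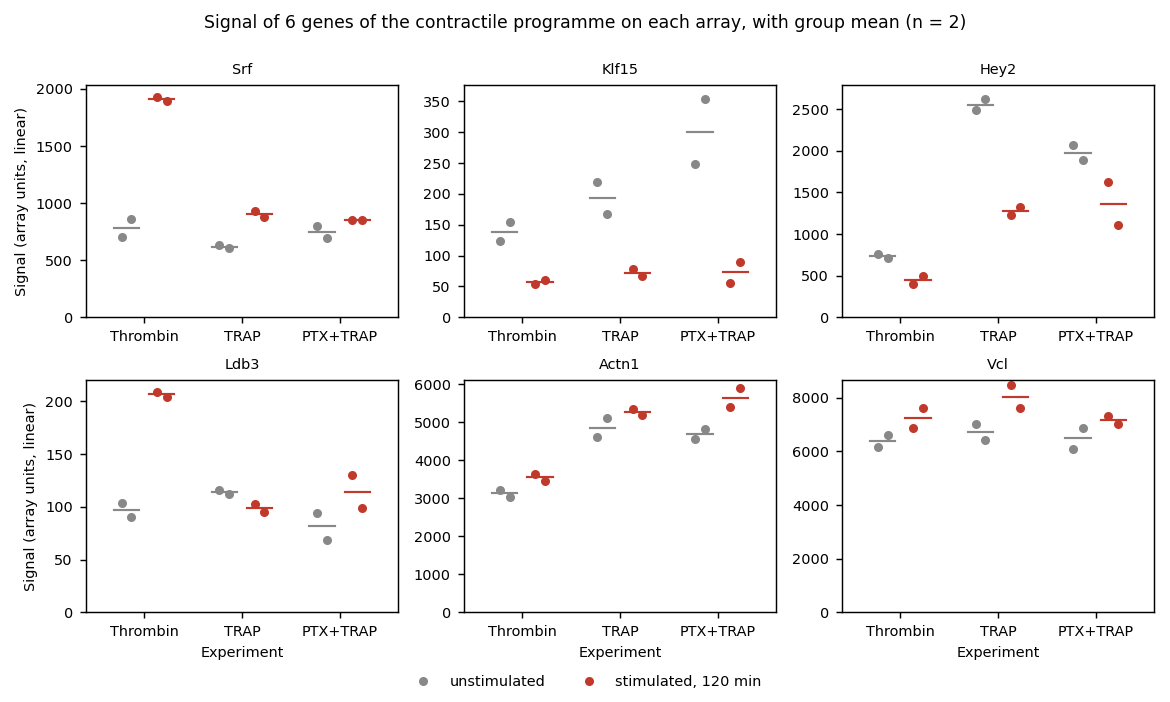
Signal (array units, linear scale from 0) on each array of Srf, Klf15 and Hey2, which regulate the programme, and of Ldb3, Actn1 and Vcl, which belong to its cytoskeleton, with unstimulated arrays in grey, stimulated arrays in red and a bar at the mean of the 2 arrays. Srf reaches 1931.0 and 1898.4 with thrombin, and Ldb3, at 209.0 and 203.9 on the thrombin-stimulated arrays, is lower on all others.

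Of 46 further names of the contractile filament and its anchors, 33 were kept genes, and thrombin raised 3 (Nexn, Ldb3 and Pdlim5) and lowered none, with a median of 0.14. Over all kept probe sets 4.74% were called with thrombin (2.63% as rises) and 3.9% with TRAP. TRAP lowered 1 (Itga1, -0.93 ± 0.23, limma, adjusted p = 0.0355) and TRAP after PTX changed none. With each array left out in turn the counts were 2 to 3 with thrombin and 0 to 1 with TRAP. The call of Pdlim5 was not made without thrombin replicate 1 (0.38) or replicate 2 (0.52), among other arrays, and Itga1 was not called without either unstimulated TRAP array or TRAP replicate 2. In the unstimulated groups 17 were higher and 4 lower in the TRAP and PTX experiments, with a median of 0.43, and the list of regulators had 14 higher and 8 lower. Over all kept probe sets 42.2% were called by that F test, 22.7% as higher there.

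Ldb3, a Z-disc PDZ-LIM protein, went from 103.3 and 90.5 to 209.0 and 203.9 with thrombin (0.98 ± 0.17, limma, adjusted p = 0.00346). With TRAP its arrays were at 102.9 and 95.0 against 116.0 and 112.3 (-0.18 ± 0.17). Nexilin (Nexn), an actin-binding protein, went from 285.3 and 271.1 to 434.1 and 519.4 with thrombin (0.74 ± 0.10, adjusted p = 0.000601) and was at 1044.6 and 1085.3 in unstimulated TRAP arrays. The LIM protein Fhl2 went from 1363.9 and 1405.1 to 2207.0 and 2309.8 with thrombin (0.70 ± 0.08, adjusted p = 0.00021). Skeletal actin (Acta1), listed with the striated muscle markers, rose with thrombin by 1.17 ± 0.15 (adjusted p = 0.000565), the only one of the 9 kept genes of that list to do so.

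Averaged over the responses, alpha-actinin 1 (Actn1, 0.19, limma, adjusted p = 0.0327) and vinculin (Vcl, 0.19, adjusted p = 0.0483), which anchor actin filaments, passed the threshold along with Ldb3 (0.41, adjusted p = 0.0125). The call of Vcl was made with 1 array left out only where that array was unstimulated thrombin replicate 2 or unstimulated PTX replicate 2, and was otherwise not made (0.16 to 0.22, adjusted p 0.0562 to 0.136), nor with quantile normalization (adjusted p = 0.187). That of Actn1 was made only without unstimulated thrombin replicate 1, unstimulated TRAP replicate 2, unstimulated PTX replicate 2 or TRAP after PTX replicate 1, and was otherwise not made (0.16 to 0.20, adjusted p 0.0585 to 0.103). Ldb3 was not called without both stimulated arrays outside their set (0.33). With each array left out in turn the number of this list called in the average was 1 to 4. Among unstimulated cells, several of these genes differed in the direction of Myocd. Integrin alpha 8 (Itga8) was higher by 2.73, Mef2c by 2.24, and the regulatory light chain Myl9 by 1.01 as the mean of both differences, while Klf5, a factor of proliferating smooth muscle, differed by -1.38. Ppp1r14a, on the same list as Itga8 and Myl9, went the other way (-0.9977, limma F test, adjusted p = 0.000298). On that list 17 genes were called higher and 4 lower. The order of Mki67 was opposite to that of Klf5. It was at 333.9 and 257.5 on unstimulated thrombin arrays and at 515.4 to 1095.7 on the other unstimulated arrays. These genes were chosen after their values were seen.

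Of 25 names of the synthetic state of smooth muscle, 20 were kept genes, and thrombin raised 6 (Ets1, Plaur, Cd44, Lgals3, Sdc1 and Timp1), TRAP 4 (Ets1, Plaur, Sdc4 and Timp1) and TRAP after PTX 3 (Ets1, Plaur and Sdc4), with none lowered. In either direction, 4.74%, 3.9% and 2.71% of all kept probe sets were called with these stimuli. Without 1 array the counts were 3 to 6, 3 to 4 and 3 to 4. Plaur, the urokinase receptor, rose by 2.32 ± 0.16, 1.94 ± 0.16 and 1.72 ± 0.16, and Ets1 by 1.24 ± 0.11, 1.16 ± 0.11 and 0.80 ± 0.11. With thrombin the calls of Timp1, Cd44 and Sdc1 were not made without thrombin replicate 1 (0.35, 0.49 and 0.46) or thrombin replicate 2 (0.53, 0.40 and 0.45), among other arrays. The TRAP call of Timp1 was not made without unstimulated TRAP replicate 1 (0.46, adjusted p = 0.166), TRAP replicate 1 (0.56, adjusted p = 0.067) or TRAP replicate 2 (0.56, adjusted p = 0.0777).

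The genes whose profile was most like the mean profile of the 10 members were found over the 12 arrays after removing the mean of each experiment, among 9896 other genes. They were Scyl2 (Pearson correlation 0.973, Spearman correlation 0.916), Msmo1 (0.969 and 0.958), Alkbh1 (r = 0.931), Tmem170a (r = 0.929) and Rabggtb (r = 0.925). The arrays share their scaling and their array sets, and the values describe these 12 arrays only. The mean profile was not scaled by gene, so genes with wide scatter, among them dim ones, weigh more. On unstimulated thrombin replicate 1 Myh11 stood at -0.81, Des at -0.53 and Myocd at -0.53. Cald1 was at 0.12 and Tagln at 0.03 there, and the other members lay between -0.32 and -0.18. Without any 1 array the r of Scyl2 was 0.950 to 0.981. Msmo1, an enzyme of cholesterol synthesis, had responses of 0.69, -0.02 and 0.19 to thrombin, TRAP and TRAP after PTX, and Scyl2 of 0.17, -0.04 and 0.01.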

How the data were processed

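RNA of 12 samples was hybridised to 1-colour arrays of 31099 probe sets. The authors deposited 1 table of intensity values on a linear scale, made with GCOS 1.4 per the submitters' processing notes. The values show each array scaled to a mean of about 200.1 with the lowest and highest 2% left out. The build used for the array is not given in the sources used here, and promoter positions are those of RefSeq's GRCr8.

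Here 57 control probe sets were dropped, log2(signal + 16) was taken, and 18625 probe sets passed a filter at the 40th percentile of the mean. A single limma model (version 3.58.1, R 4.3.3) covered the 6 labelled groups of 2 arrays, with lmFit and then eBayes using a trend on intensity (6 residual and 7.5 prior degrees of freedom). Contrasts were 2-sided with Benjamini-Hochberg adjustment over all kept probe sets, and an adjusted p below 0.05 is a call. The fit was tested on simulated data. The precision is limited by the 2 arrays per group. Where an array was left out, its lone partner was taken to vary as the rest do.

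Probe sets were named where the annotation gives exactly 1 symbol (20826 do, 436 give several and 9780 none). In lists a gene is its brightest kept probe set, and 1 list of companion genes is not reported here. The members and lists were chosen with earlier results of these data known. Named genes are all members, from each list up to 4 genes of smallest p in the average response, and the 5 genes most alike in profile. Other genes named, such as Fhl2, Nexn, Pdlim5, Csrp1, Tbx18, Elk4, Itga1, Itga8, Mef2c, Myl9, Klf5, Timp1, Lgals3, Sdc1, Saa3 and Mki67, were chosen after their values were seen. The alternatives changed the pseudocount, the filter, the scaling or the intensity trend, added a replicate block, fitted only the arrays compared, or left out each array. An array set block, leaving out the 2 stimulated arrays in the other set, and leaving out the thrombin experiment were chosen after seeing the data.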

Additional observations from a re-analysis of the deposited data

Results flagged for a closer look

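In 3 genes of the cytoskeletal and regulator lists the response to thrombin differed from the response to TRAP by the test of the difference itself (limma, Benjamini-Hochberg adjustment over all kept probe sets, n = 2 per group). Fhl2 differed by 0.83 ± 0.12 (log2, SE, adjusted p = 0.00506), rising in both thrombin arrays, while its TRAP arrays (1610.0 and 1547.6) lay below their unstimulated arrays (1754.9 and 1701.5). Nexn differed by 0.96 ± 0.14 (adjusted p = 0.00724), with TRAP arrays at 931.2 and 895.6 against 1044.6 and 1085.3. Ldb3 differed by 1.16 ± 0.23 (adjusted p = 0.0461). Leaving out unstimulated TRAP replicate 2 put Nexn at 0.93 (adjusted p = 0.0507). Ldb3 was past the threshold only narrowly and was not called when any 1 of the 8 arrays of these experiments was left out (1.08 to 1.24, adjusted p 0.0847 to 0.206). Median centring put Fhl2 at 0.75 (adjusted p = 0.0643), and without the intensity trend both Fhl2 and Nexn had an adjusted p of 0.0567. None of the members was called in this contrast. Each stimulus belongs to its own experiment, and starting levels differed, with unstimulated Nexn at 285.3 and 271.1 in the thrombin experiment. Starting level and stimulus cannot be told apart for these genes either.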

How the results depend on the processing

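Each member value was recomputed under each alternative: of 2766 values, 2679 kept their side of the threshold, 68 lost a call, 19 gained one and 0 called values changed sign. Among the 2679 were 97 uncalled values that changed sign. For named list genes the numbers were 9290 of 9706, 339, 77, 0 and 286. The count of members called with thrombin was 2 in place of 1 with a pseudocount of 1 (Lmod1, 0.58, adjusted p = 0.0441), with the 60th percentile filter (Lmod1, 0.49, adjusted p = 0.0489) and with quantile normalization (Acta2, 0.32, adjusted p = 0.0286), and 1 to 2 with each array left out. With TRAP the count was 1 in place of 0 with quantile normalization (Cald1 1368824_at, -0.35, adjusted p = 0.0144). The count that differed among unstimulated groups was 5 with median centring, 6 to 9 with each array left out, and 7 to 10 otherwise. With the replicate number as a block the counts were 1 for thrombin, 0 for TRAP, 0 for TRAP after PTX, 1 for the average and 10 for the unstimulated groups, where Cald1 1371969_at was added. Numbers were not shown to pair the samples (correlations of deviations 0.134, 0.104 and 0.0217 over 2 pairs each). The average could not be fitted with only the arrays compared. The cause of these changes was not tested. Myocd in the thrombin experiment, Myh11 and Des lie near the dim end, where background limits what the arrays can show.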

Other observations

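Myh2, a fast skeletal myosin heavy chain on the list of striated muscle markers, differed more between unstimulated experiments than any member did. It was higher in the TRAP experiment by 5.15 ± 0.13 and in the PTX experiment by 4.81 on the log2 scale (limma F test, adjusted p = 2.03e-11), although the summed signal of that list ran in the opposite direction. Klf4, a factor known to oppose the contractile programme, was also higher there, by 0.71 ± 0.13 in the TRAP experiment (limma, adjusted p = 0.000566), in the same direction as Myocd, and its value with thrombin was 0.42 (adjusted p = 0.0806). Among the Srf cofactors Mrtfa differed by 0.79 between the unstimulated groups, as the mean of both differences. These genes were chosen after their values were seen.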
